A study of Caenorhabditis elegans with 2 samples.

Results

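The UDP-glucuronosyltransferase and glutathione transferase genes of Caenorhabditis elegans were examined for promoter peaks of a tagged nuclear hormone receptor, NHR-129. The genes were chosen by name, as every protein-coding gene with the prefix ugt- or gst- in the Ensembl annotation of WBcel235. This gave 111 of 19973 protein-coding genes, 67 with the prefix ugt- and 44 with the prefix gst-. The series profiled chromatin by immunoprecipitation and sequencing in whole larvae of the L2 stage, the second larval stage, of both sexes and of unknown age. All animals were of strain OP339, which carries the unc-119(ed3) allele and the transgene wgIs339 encoding NHR-129 joined to enhanced green fluorescent protein. There was 1 group of 2 biological replicates, with no untagged or untreated group, so no condition was compared with another and no test over samples was possible. Cells of all tissues were mixed, and the labels do not give the promoter or the tissues in which the tagged receptor was made.

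UDP-glucuronosyltransferases are membrane enzymes of the endoplasmic reticulum that attach a sugar from a UDP-sugar donor to small fat-soluble molecules. Glutathione transferases, most of them soluble, join glutathione to electrophiles such as products of lipid oxidation. Both make their substrates easier to export, and in C. elegans many of these genes are active in the intestine and respond to foreign compounds or oxidative stress. Nuclear hormone receptors are transcription factors, many of which are controlled by small fat-soluble ligands.

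The promoter window reached 1000 bp upstream of the annotated gene start and 100 bp past it. A gene was called marked when the summit of a peak on the authors' reproducibility-thresholded list lay in that window. A gene with no such summit but with a call on the relaxed list of the pooled replicates was called weakly marked. The thresholded list held 6626 peaks with signals of 63.4 or more, and each relaxed list held 30000 calls. By the authors' description the relaxed lists hold peaks and background together. The signal is the authors' own value per peak on a scale that is not given. No read depth is given in the sources, so none could be set beside a value.

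The sequences upstream of the 3 strongest peaks of each family are printed to show the DNA under the summits. They read in the direction of transcription from up to 150 bases before the summit to at most 100 bases after it, stopping before the annotated start and before any neighbouring coding gene. Capitals mark 4 motifs on either strand. The motif TGATAA is the core that GATA factors of the worm intestine bind, and its reverse complement reads TTATCA. The motif GTCATC and its variant ATCATC hold the core of sites of SKN-1, the worm relative of Nrf and a regulator of conjugation genes. The motif AGGTCA is an element bound by many nuclear receptors. The variant ATCATC can overlap the reverse complement of the GATA core.
ugt-50, chrX:12691381-12691572, plus strand, 192 bases, summit at base 151: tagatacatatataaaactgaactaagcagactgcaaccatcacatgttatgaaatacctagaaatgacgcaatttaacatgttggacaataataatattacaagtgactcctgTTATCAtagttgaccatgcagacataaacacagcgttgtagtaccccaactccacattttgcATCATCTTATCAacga
ugt-13, chrV:4908610-4908860, plus strand, 251 bases, summit at base 151: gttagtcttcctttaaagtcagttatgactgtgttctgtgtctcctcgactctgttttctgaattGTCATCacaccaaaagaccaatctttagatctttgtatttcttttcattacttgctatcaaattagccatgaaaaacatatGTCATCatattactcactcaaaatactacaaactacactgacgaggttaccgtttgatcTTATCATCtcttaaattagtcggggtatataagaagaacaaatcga
ugt-61, chrV:4742220-4742421, plus strand, 202 bases, summit at base 151: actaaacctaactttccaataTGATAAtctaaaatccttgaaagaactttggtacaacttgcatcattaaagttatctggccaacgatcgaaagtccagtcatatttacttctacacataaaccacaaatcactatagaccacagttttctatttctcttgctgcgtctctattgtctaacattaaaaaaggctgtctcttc
gst-27, chrII:15165984-15166193, minus strand, 210 bases, summit at base 110: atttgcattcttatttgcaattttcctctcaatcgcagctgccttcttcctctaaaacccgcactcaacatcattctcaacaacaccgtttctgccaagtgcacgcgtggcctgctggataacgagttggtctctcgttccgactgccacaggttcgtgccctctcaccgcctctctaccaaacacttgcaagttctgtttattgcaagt
gst-5, chrII:10950148-10950351, plus strand, 204 bases, summit at base 151: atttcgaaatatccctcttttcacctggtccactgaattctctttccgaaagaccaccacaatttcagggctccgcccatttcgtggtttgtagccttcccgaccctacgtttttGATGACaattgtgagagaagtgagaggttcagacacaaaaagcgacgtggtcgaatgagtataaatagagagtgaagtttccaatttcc
gst-42, chrX:11727937-11728135, minus strand, 199 bases, summit at base 151: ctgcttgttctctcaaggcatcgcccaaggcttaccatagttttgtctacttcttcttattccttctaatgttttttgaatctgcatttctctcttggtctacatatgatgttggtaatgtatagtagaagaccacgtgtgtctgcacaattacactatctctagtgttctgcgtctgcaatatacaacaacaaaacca

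Among the 111 genes, 23 were marked, or 20.7% (95% Wilson interval 14.2 to 29.2%), against 18.2% of all protein-coding genes. The members' share was thus near the background. By family, 14 of 67 ugt genes (20.9%, interval 12.9 to 32.1%) and 9 of 44 gst genes (20.5%, interval 11.2 to 34.5%) were marked. The intervals cover counting error only, and neighbouring genes can share a summit. The signals of the marked members ran from 65.9 to 1072 with a median of 117, and the median over all marked coding genes was 139. The 1000 strongest peaks marked 4 members (3.60%), ugt-50, ugt-13, gst-27 and gst-5, and 718 of all coding genes (3.59%), so this share too was at the background.

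**Figure D1:**
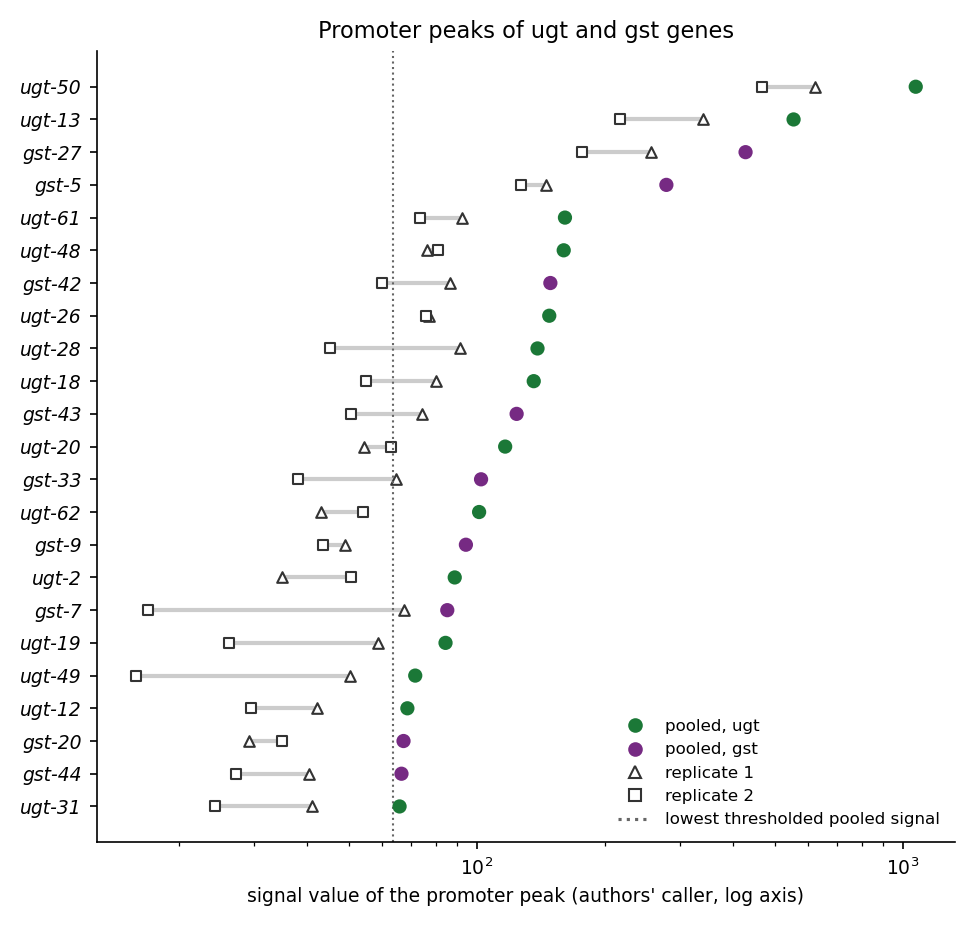
Signal of the strongest thresholded promoter peak of each of the 23 marked members, on a log axis, with genes in order of pooled signal. Filled circles are the pooled list (ugt green, gst purple), open triangles replicate 1 and open squares replicate 2, joined by a grey line, and the dotted line is the lowest thresholded pooled signal, 63.4. The 4 members at the top stand apart from the other 19, whose pooled signals lie between 65.9 and 161.

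The strongest member peak was at ugt-50 (WBGene00011564, X, 12691573 to 12695652, plus strand). Its promoter signal was 1072 in the pooled list, 621 in replicate 1 and 466 in replicate 2. It ranked 41 of the pooled calls, 40 in replicate 1 and 42 in replicate 2, so both replicates placed it alike. The summit lay 42 bp upstream of the start, and the printed stretch holds TGATAA on the reverse strand at 2 places, one of which directly follows ATCATC. A second thresholded peak lay 969 bp upstream with a pooled signal of 105 (64.6 in replicate 1 and 39.3 in replicate 2). Another lay in an intron, 594 bp downstream of the start, with a signal of 79.7 (58.5 in replicate 1 and 22.001 in replicate 2). The microRNA gene mir-62 lies in the same strand 441 bp downstream of that intronic summit. No other coding gene had the main summit in its promoter window.

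The next ugt peak was at ugt-13 (WBGene00019232, V, 4908884 to 4911399, plus strand), the last gene of a run of 8 ugt genes. Its signal was 554 in the pooled list, 340 in replicate 1 and 216 in replicate 2, and the summit lay 124 bp upstream. The printed stretch holds GTCATC at 2 places and, nearer the start, TTATCA overlapping ATCATC. Next came ugt-61 and ugt-48. The peak of ugt-61 had a pooled signal of 161 (92.4 in replicate 1 and 73.4 in replicate 2), 52 bp upstream of the start. That of ugt-48 had 160 (76.2 in replicate 1 and 81.1 in replicate 2) and lay farther out, at 625 bp. Of the promoter window of ugt-48, 77.4% of the words of 36 bases occurred once in the genome, the lowest value of any marked member.

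The remaining 10 marked ugt genes had pooled signals of 65.9 to 148. In descending order they were ugt-26, ugt-28, ugt-18, ugt-20, ugt-62, ugt-2, ugt-19, ugt-49, ugt-12 and ugt-31. The neighbours ugt-26 and ugt-28 had near-equal pooled signals of 148 and 139. Replicate 1 gave 77.3 for ugt-26 and 91.1 for ugt-28, whereas replicate 2 gave 76.0 and 45.1. The gene ugt-18 had a further thresholded summit 857 bp upstream (pooled signal 108) beside one at 241 bp, stronger in the pooled list (136). The nearer one was the stronger in replicate 1 (80.3 against 42.5) and the farther one in replicate 2 (64.9 against 55.0). The nearer one also lay in the window of ZC443.4, while the farther one lay in that of no other coding gene.

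The strongest gst peak was at gst-27 (WBGene00001775, II, 15164890 to 15165731, minus strand). Its pooled signal was 427, with 256 in replicate 1 and 177 in replicate 2, and ranks of 316 and 465. The summit lay 353 bp upstream of gst-27 and only 56 bp upstream of the small nucleolar RNA gene Y53F4B.48 on the same strand. Which of the 2 genes the peak belongs to cannot be told apart by position. The printed stretch, whose last bases lie in the small nucleolar RNA gene, holds none of the 4 capitalised motifs. Next was gst-5 (WBGene00001753, II, 10950352 to 10951603, plus strand), which encodes an enzyme that acts on the lipid oxidation product 4-hydroxynonenal. Its pooled signal was 279, with 145 in replicate 1 and 127 in replicate 2, and the summit was 54 bp upstream of the start.

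The third, gst-42, encodes the zeta-class enzyme of tyrosine breakdown, maleylacetoacetate isomerase. Its pooled signal was 149 (86.4 in replicate 1 and 59.9 in replicate 2), at a summit 49 bp upstream that also lay in the window of the divergent gene D1053.2. The peak of gst-43, with a signal of 124, lay between gst-43 and the divergent gene copa-1, which encodes a coatomer subunit. The other marked gst genes were gst-33, gst-9, gst-7, gst-20 and gst-44, with pooled signals of 102, 94.3, 85.2, 67.3 and 66.5 in that order. The last 2 lay close to the lowest signal of the thresholded list.

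Most marked gst genes had their summit within 100 bp of the start, while most marked ugt genes did not. The strongest thresholded summit was within 100 bp of the start at 12 of the 23 marked members (52.2%), against 746 of 3640 marked coding genes (20.5%). In the gst family this held for 7 of 9 genes (77.8%) and in the ugt family for 5 of 14 (35.7%). The median distance upstream was 79 bp over the members and 241 bp over all marked coding genes. By family it was 65 bp for gst and 142 bp for ugt genes, both below that of all marked coding genes. No test was run on this difference, and a start in the annotation may be a trans-splice site rather than the place where transcription begins. The cyp genes, of cytochrome P450 enzymes, had 8 of 14 marked genes within that distance. The summit also lay in the window of another coding gene at 5 of 23 marked members (21.7%), against 1625 of 3640 marked coding genes (44.6%). The 5 were at ugt-18, ugt-12, ugt-31, gst-42 and gst-43. A shared summit entered the distances above at each of its genes, and its part in their difference was not tested.

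**Figure D2:**
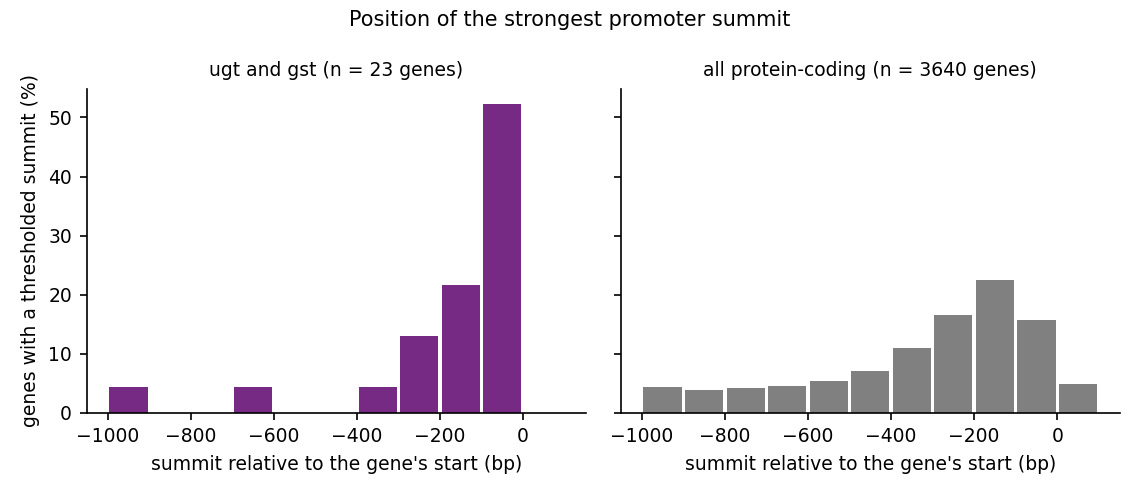
Position of the strongest thresholded summit relative to the annotated start of the gene, in bins of 100 bp, as a percent of marked genes, for the 23 marked ugt and gst genes (left) and all 3640 marked protein-coding genes (right). The bin next to the start on its upstream side holds 52.2% of the member genes and 15.7% of all marked coding genes.

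Near the limits of the rule, the outermost member summits inside the window were those of ugt-49, at 969 bp and signal 71.7, and the second one of ugt-50, also at 969 bp. The nearest outside it was 1354 bp upstream of ugt-45, with a signal of 76.1. In signal, the lowest marked member was ugt-31 at 65.9, and the highest one below the threshold was gst-1 at 59.9. The gst-1 call had the highest deposited −log10 q-value of the pooled list, 4.15, the same as every thresholded peak.

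The weaker calls were spread unequally over the families. A relaxed call without a thresholded summit was found at 21 of 44 gst genes (47.7%, interval 33.8 to 62.1%) and at 6 of 67 ugt genes (8.96%, interval 4.17 to 18.2%), against 20.4% of all coding genes. Any pooled call lay in the window of 68.2% of gst genes, 29.9% of ugt genes and 38.6% of all coding genes. On V, where 42 of the 67 ugt genes lie, 1448 of 4994 coding genes had one, a share near that of ugt. On II, where 25 of the 44 gst genes lie, 1308 of 3449 did. A relaxed call alone was at 2 of the 42 ugt genes on V, against 806 of the 4994 coding genes. On II it was at 14 of the 25 gst genes, against 743 of the 3449. Both replicates had a call in the window at 23 gst genes (52.3%) and 18 ugt genes (26.9%), against a background of 30.2%. These shares were not tested, and genes of a tandem run share ancestry and stretches of window. The weakly marked gst-17 and gst-18 had the same call, as did gst-2 and gst-4, and each gene was counted. The weak gst signals ran from 15.7 to 59.9 with a median of 31.6, all below the thresholded list. Their deposited −log10 q-values ran from 0.0907 at gst-22 to 4.15 at gst-1. At gst-8, whose signal was the median one, the value was 0.897, and the call lay in a coding exon of gst-7. Since the relaxed lists include background, such a call need not be a site of binding.

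**Figure D3:**
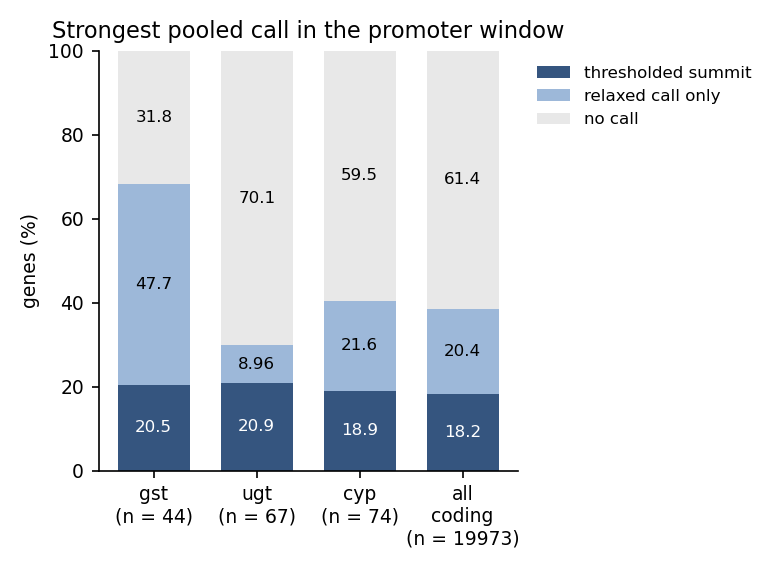
Percent of genes whose promoter window held a thresholded summit (dark), only a relaxed pooled call (light) or no pooled call (grey), for gst, ugt and cytochrome P450 (cyp) genes and for all protein-coding genes. The dark parts are 20.5, 20.9, 18.9 and 18.2%, while the light part is 47.7% for gst and 8.96% for ugt.

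The 6 strongest of the weakly marked members were gst-1, gst-24, gst-36, ugt-65, gst-30 and gst-17, with pooled signals of 59.9, 53.9, 48.1, 47.3, 47.0 and 40.0. The glutathione transferase gst-1 had 23.1 in replicate 1 and 36.6 in replicate 2, which put it below the 6626 strongest calls of replicate 1 and within those of replicate 2. The call of gst-17 was the same as that of gst-18, whose windows overlap. The divergent genes gst-2 and gst-4 likewise shared 1 call, also in the window of dhs-12, with a pooled signal of 35.6, 24.7 in replicate 1 and 14.0 in replicate 2. The gene gst-4 is a widely used reporter of oxidative stress and a target of SKN-1. The whole stretch between its start and that of gst-2 is printed here as a contrast, since it holds GTCATC on both strands and TGATAA under a weak call.
gst-4, chrIV:10142062-10142224, plus strand, 163 bases, summit at base 111: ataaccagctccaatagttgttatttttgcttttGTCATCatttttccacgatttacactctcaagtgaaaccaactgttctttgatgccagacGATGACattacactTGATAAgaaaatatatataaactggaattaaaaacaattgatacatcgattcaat

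No pooled call lay in the window of 61 members, 47 of them ugt and 14 gst genes. Of these 61, 48 had no call in either replicate, 12 had one in a single replicate and 1, ugt-23, had one in both (13.3 in replicate 1 and 13.1 in replicate 2). The nearest thresholded summit was a median of 8640 bp from their starts. The genes ugt-16 and ugt-22 were among them, ugt-16 with no call in either replicate and ugt-22 with 11.1 in replicate 2 alone. So was gst-10, which encodes another enzyme acting on 4-hydroxynonenal. Of its window, 0% of the 36-base words occurred once in the genome, and 99.7% of them recurred in the window of F56A4.3, 108.3 kb away, which had no pooled call either. The window of gst-39 was 14.1% single-copy. Reads of 36 bases from the repeated stretches could not be assigned to one place, but the labels do not give the read length. The part of such repeats in the missing calls was not tested. The other 109 members had at least 50% of their words once, and without gst-10 and gst-39 the marked share was 21.1%.

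Marked members were spread over the chromosomes. The ugt genes lie mostly on V (42 of 67) and the gst genes mostly on II (25 of 44). On V, 9 of 51 members were marked, or 17.6%, against 12.9% of the coding genes there. On II the count was 5 of 26 (19.2%), against 16.4%. On IV it was 2 of 16, with 17.5% for all coding genes, and on I 4 of 7, with 23.5%. Chromosome III had 1 of 4 and X had 2 of 7, beside 24.5% and 19.6% of coding genes.

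Many members lie in runs of neighbouring genes of the same family, taken as gene records within 10 kb of each other. Such runs of at least 2 genes held 62 members, of which 12 were marked (19.4%), while 11 of the 49 members lying alone were marked (22.4%). Of the 15 runs, 7 held no marked gene, 4 held 1 and 4 held 2. The 9 gst genes from gst-20 to gst-18 on II, all on the minus strand, had 1 marked gene, gst-20, and 6 weakly marked ones. The 9 gst genes from gst-26 to gst-35 on II had 1 marked gene, gst-27, and 5 weakly marked ones with pooled signals of 28.8 or less. The call of gst-26, at 26.3, lay inside gst-27.

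The 8 ugt genes from ugt-12 to ugt-13 on V were marked only at their ends, with 68.7 at ugt-12 and 554 at ugt-13. Of the 6 between, ugt-11 had a pooled relaxed call of 29.7 and the others had no pooled call. Weak calls in replicate 2 alone lay at ugt-8 and ugt-9, of 13.1 and 14.0, and that of ugt-9 also lay in the window of ugt-11. The 6 ugt genes from ugt-40 to ugt-36 and the 4 from ugt-5 to ugt-3, all on V, had no pooled call at any promoter. Replicate 1 alone had weak calls at ugt-40 (11.5) and ugt-41 (15.5). In the pair ugt-19 and ugt-20 on IV, both were marked, with 84.4 and 117. Windows of some run members are partly repeated elsewhere, the lowest being 69.7% single-copy in the gst-20 run (gst-12), 14.1% in the gst-27 run (gst-39) and 73.5% in the ugt-13 run (ugt-10).

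**Figure D4:**
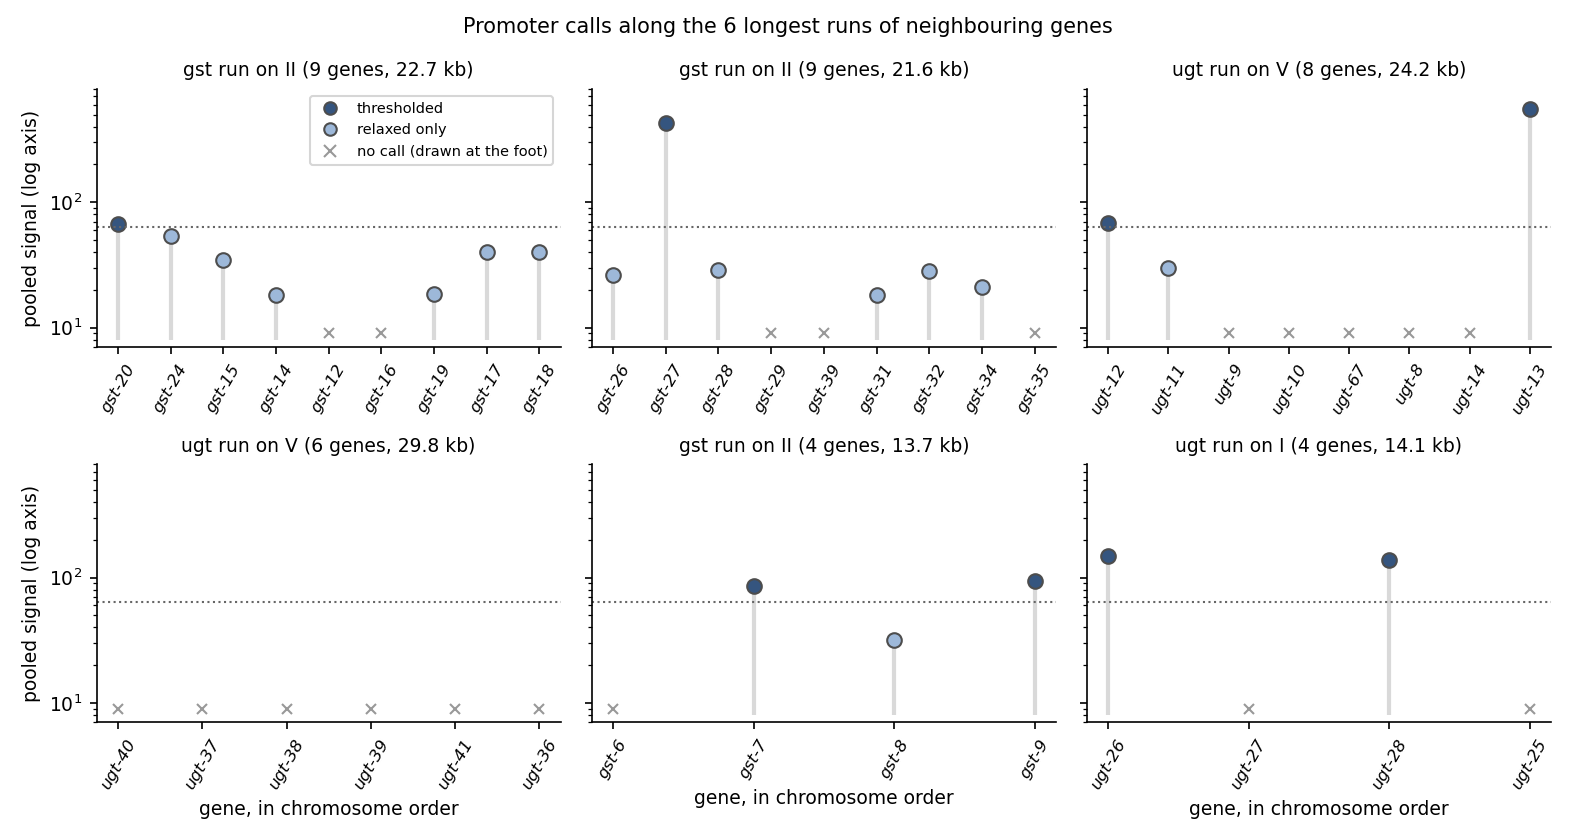
Pooled signal of the strongest promoter call (log axis) for each gene of the 6 longest runs, in chromosome order. Dark circles are thresholded, light circles relaxed calls only, crosses at the foot are genes with no pooled call, and the dotted line is the lowest thresholded signal. In the 3 longest runs 4 genes are thresholded, gst-20, gst-27, ugt-12 and ugt-13.

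In the run of gst-6 to gst-9 on II, the first gene had no pooled call, gst-8 had a relaxed call of 31.6, and gst-7 and gst-9 were marked. Both summits lay 79 bp upstream of their starts. Their upstream sequences are shown because the summits sit at the same distance while the motifs differ.
gst-7, chrII:4881833-4882061, plus strand, 229 bases, summit at base 151: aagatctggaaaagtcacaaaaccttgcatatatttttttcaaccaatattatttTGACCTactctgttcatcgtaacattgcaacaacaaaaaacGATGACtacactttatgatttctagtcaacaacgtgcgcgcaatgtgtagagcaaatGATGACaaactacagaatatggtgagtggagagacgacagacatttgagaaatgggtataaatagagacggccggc
gst-9, chrII:4891406-4891584, plus strand, 179 bases, summit at base 101: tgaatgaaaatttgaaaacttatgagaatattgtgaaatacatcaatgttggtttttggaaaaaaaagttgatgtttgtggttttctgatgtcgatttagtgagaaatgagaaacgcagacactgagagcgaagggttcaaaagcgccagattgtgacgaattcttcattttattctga
The stretch of gst-7 holds GATGAC, the reverse complement of GTCATC, at 2 places and AGGTCA on the reverse strand once. The stretch of gst-9 holds none of the 4. The signals of gst-9 were 49.1 in replicate 1 and 43.6 in replicate 2. Those of gst-7 were 67.5 in replicate 1 and 16.9 in replicate 2, so replicate 2 was far lower than replicate 1 at gst-7 and close to it at gst-9.

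Some thresholded peaks lay inside member genes but outside the promoter window. There were 5, all in ugt genes. Most ugt gene records are longer than most gst ones, so more of their length lies outside the window. Such peaks were not counted over all coding genes or per length of gene. Whether the families differ in them beyond gene length was not tested. At ugt-2 the peak in an intron 667 bp downstream of the start (signal 228, 149 in replicate 1 and 78.5 in replicate 2) was stronger than the promoter peak 161 bp upstream (88.7, with 34.9 in replicate 1 and 50.8 in replicate 2). The gene ugt-17, not marked at its promoter, had a peak in a coding exon 962 bp downstream (149, with 86.7 in replicate 1 and 60.9 in replicate 2). At ugt-24 the peak was in an annotated 5' UTR 1183 bp downstream of the gene's start (102), and at ugt-65 it was in an intron 3620 bp downstream (71.5). With the start of every annotated transcript used in place of the gene's, ugt-24 and ugt-65 became marked too. The fifth was the intronic peak of ugt-50 described above.

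The promoters were also searched for motifs, whether or not they held a peak. From 250 bp before the start to 50 bp after it, GTCATC on either strand was found at 54.5% of gst genes and 17.9% of ugt genes, against 11.4% of all coding genes. CTTATCA, a longer form of the same GATA element whose reverse complement TGATAAG contains TGATAA, was found at 35.8% of ugt genes and 15.9% of gst genes, against 9.23%. The core TGATAA was found at 68.7% of ugt genes and 31.8% of gst genes, against 30.3%. AGGTCA was at 2.99% of ugt genes and 15.9% of gst genes, against 8.29%. ATCATC was at 32.8% of ugt and 18.2% of gst genes, against 16.9%.

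The counts for 5 motifs were then split by call, into marked genes, weakly marked genes and genes without a pooled call, in that order. Among gst genes GTCATC was in 3 of 9, 12 of 21 and 9 of 14, and among ugt genes in 3 of 14, 1 of 6 and 8 of 47. Its shares of all coding genes were 11.4, 12.2 and 11.0%. CTTATCA was in 4 of 14, 1 of 6 and 19 of 47 ugt genes and in 1 of 9, 4 of 21 and 2 of 14 gst genes, beside 6.13, 11.3 and 9.45% of all coding genes. GTCATC in gst genes and CTTATCA in ugt genes were thus found in members with and without a call. TGATAA was in 8 of 14, 5 of 6 and 33 of 47 ugt genes and in 2 of 9, 9 of 21 and 3 of 14 gst genes, beside 25.0, 32.5 and 31.1%. ATCATC was in 8 of 14, 1 of 6 and 13 of 47 ugt genes and in 1 of 9, 5 of 21 and 2 of 14 gst genes, beside 15.7, 17.6 and 17.1%. AGGTCA was in 1 of 14, 0 of 6 and 1 of 47 ugt genes and in 3 of 9, 2 of 21 and 2 of 14 gst genes, beside 246 of 3640, 326 of 4077 and 1083 of 12256 coding genes. The groups are small, tandem copies share sequence, and no test was run. A further 7 motifs were searched on both strands. The DAF-16 element GTAAACA was in 5.41% of member promoters, against 4.78% of all. The E-box CACGTG was in 7.21%, against 5.84%. The elements TTGCGTG, of AHR-1, and TACGTG, of HIF-1, were in 0.901% and 5.41% of members, against 2.32% and 7.06%. The heat shock element GAANNTTC was in 14.4%, against 18.6%. The C/EBP-type element TTGCNNAA was in 30.6%, against 27.4%, and the CREB-type element TGACGTCA in 0.901%, against 1.53%.

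Within 100 bp on either side of the 23 member summits, TGATAA was found at 7 (30.4%), against 15.2% of all 6626 thresholded summits. The member summits all lie in promoters, whereas the 6626 include summits elsewhere, so the sites compared are not alike. With or without a call, 54.1% of member promoters held TGATAA, 27.9% CTTATCA and 32.4% GTCATC in the 250 bp window above. CTTATCA was at 5 (21.7%) against 5.16%, GTCATC at 5 (21.7%) against 10.8%, and AGGTCA at 4 (17.4%) against 7.29%. ATCATC was at 6 (26.1%) against 15.2%, and TTGCNNAA at 7 (30.4%) against 17.1%. The other motifs were below their share of all summits. CACGTG was at 2 (8.70%) against 8.92%, GTAAACA at 1 (4.35%) against 5.09% and GAANNTTC at 1 (4.35%) against 7.18%. The HIF-1 element was at 0 member summits, against 5.61% of all, as were the AHR-1 element, against 2.93%, and the CREB-type element, against 1.74%. Each of these counts is of few peaks. The choice to look at summits was made after the values were seen.

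Other genes of conjugation and export are set beside the 18.2% of all coding genes that were marked, with Wilson intervals. The cyp genes, whose enzymes oxidise foreign compounds before conjugation, were marked at 14 of 74 (18.9%, interval 11.6 to 29.3%), led by cyp-33C8 with a pooled signal of 444. The ABC exporter genes of the mrp and pgp families, which pump out conjugates and other compounds, were marked at 4 of 22 (18.2%, interval 7.31 to 38.5%). Both shares were at the background. Of the exporters mrp-5 had 968 (542 in replicate 1 and 431 in replicate 2) and mrp-2 had 498 (272 in replicate 1 and 228 in replicate 2). The glutathione transferases named gsto or gstk were marked at 3 of 5 (interval 23.1 to 88.2%), gstk-2, gsto-1 and gstk-1, with 136, 91.4 and 77.0.

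Of 8 genes for the supply of glutathione, 3 were marked (37.5%, interval 13.7 to 69.4%, which holds the background). They were E01A2.1 with a signal of 310, gss-1, for glutathione synthetase, with 184, and gsr-1, for glutathione reductase, with 146. The gene of the rate-limiting enzyme of glutathione synthesis, gcs-1, had only a relaxed call of 32.8. The gene sqv-4, for the UDP-glucose dehydrogenase that makes UDP-glucuronate, was marked with 98.6, while sqv-7, for a UDP-sugar transporter, had no pooled call. The sulfotransferase gene ssu-1 had none either. Of 16 genes for regulators of these pathways, 7 were marked (43.8%, interval 23.1 to 66.8%). These small lists were chosen with earlier results known and were not tested. The strongest was wdr-23, for the repressor of SKN-1 (660, with 402 in replicate 1 and 259 in replicate 2), followed by aha-1, daf-16, xrep-4, nhr-86, hif-1 and nhr-8 with 186 to 72.1. The genes skn-1 and elt-2 had no pooled call in the window.

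All 23 member peaks had an overlapping call in both replicates, as did 6593 of all 6626 thresholded peaks. The list was selected for agreement between the replicates, so this is not separate evidence for the member peaks. Replicate 1 was higher at 18 of the 23 peaks, and at 5023 of the 6593 thresholded peaks with a call in both replicates, a similar share. The median log2 difference, replicate 1 minus replicate 2, was 0.53 with an SD of 0.61 over peaks. Over the 6593 thresholded peaks with a call in both replicates the median was 0.31 and the SD 0.49. Spearman's rho between the replicates was 0.74 over the 23 member peaks, which share their libraries, against 0.82 over the 6593. The widest gaps were at gst-7, 2.00 on the log2 scale, at ugt-49, 1.67, and at ugt-19, 1.16. Among the 6626 strongest calls of replicate 1 alone, 22 members were marked, 21 of them among the 23. Among those of replicate 2 alone, 18 were marked, 17 of them among the 23. The members absent from the replicate 2 set were gst-44, gst-7, ugt-12, ugt-19, ugt-31 and ugt-49.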

How the data were processed

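Chromatin immunoprecipitation and sequencing of tagged NHR-129 was done in 2 biological replicates of L2 larvae. Per the labels, library fragments were 150 to 350 bp long. Per the deposited file listings, the authors called relaxed lists, of peaks with background, per replicate and on pooled replicates. They took the thresholded list from these by the irreproducible discovery rate. Aligner, caller and versions were not stated in the sources, and the control library named in the labels was not analysed here. The signal value and the −log10 q-value of each peak are those deposited by the authors, and the signal scale differs between pooled and replicate lists. The ce11 lists were used, and the ce10 lists were not. Sequence is RefSeq's copy of WBcel235, the same assembly as ce11, with Ensembl release 115 gene models. Coordinates are 1-based.

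A summit was the deposited start plus the deposited offset. Replicate signals are those of the strongest call overlapping the pooled peak by at least 1 bp. Windows were checked for repeats as the share of 36-base words found once in the genome on either strand. Motifs were matched exactly on both strands. Shares carry 95% Wilson intervals, which cover counting error only. No test was run, since there is 1 group, and motif and gene lists are described beside all protein-coding genes. Assignment of summits to windows was checked on simulated data. The genes, the lists and the rule for naming genes were chosen with earlier results of these data known. The rule named every marked member, the 6 strongest weakly marked ones, those with a peak inside the gene only, those nearest the window's limits, and 7 fixed genes, gst-1, gst-4, gst-10, gst-42, gst-43, ugt-16 and ugt-22. Further genes of the runs, ugt-23, gst-39 and F56A4.3 were named, and the sequences of gst-4, gst-7 and gst-9 chosen, after their values were seen. Alternatives were other windows, starts, peak lists, single replicates and single-copy windows. Computation used Python 3.11.15, numpy 2.4.6, pandas 2.3.3 and scipy 1.17.1.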

Additional observations from a re-analysis of the deposited data

How the results depend on the processing

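The share of members marked stayed within its 95% Wilson interval with windows of 500 or 2000 bp and starts of any transcript. It did so too with overlap of the peak interval, merged peaks, either replicate alone and windows at least 90% single-copy. The same held for windows at least 50% single-copy, a setting added after the values were seen. Counting genes that share a summit once could not move the share from 20.7%. No marked member shared its thresholded summit with another member, and summits shared with other coding genes were not merged in that count. The 2000 bp window took gst to 31.8%, more than 1.5 times its share of 20.5%, and ugt to 22.4%. The gst genes gained were gst-8, gst-17, gst-18, gst-26 and gst-39. Of these, gst-26 took the summit already counted at gst-27 and gst-8 that of gst-7, while gst-17 and gst-18 took the same summit. With either replicate alone the marked share ranged from 16.2 to 19.8% for all members, from 14.9 to 19.4% for ugt and from 18.2 to 20.5% for gst. For all coding genes the range was 17.8 to 18.0%. The marked share moved with the number of peaks, as it must. The stronger part of the thresholded peaks, 3313, gave 9.91% of members (10.4% of ugt, 9.09% of gst) and 10.6% of all coding genes. The 1000 strongest gave 3.60% (2.99% and 4.55%) and 3.59%. All pooled relaxed calls gave 45.0% of members, 68.2% of gst and 38.6% of all coding genes. The share of all coding genes, whose interval is narrow, also moved to 14.5 and 23.8% with windows of 500 and 2000 bp, 20.0% with any transcript's start, 19.9% with interval overlap, 14.7% with shared summits counted once and 19.7% with single-copy windows. The 14.7% merged summits over all coding genes, so it is not on the same rule as the 20.7% of members. In the wider motif window, of 1000 bp upstream and 100 bp downstream, the gaps to all coding genes narrowed for GTCATC in gst (63.6% against 33.3%) and for TGATAA in ugt (92.5% against 69.0%). TGATAA in gst turned from above to below, at 65.9% against 69.0%. The pooled signals kept their values at all 23 members with the 2000 bp window and at the 21 still marked with 500 bp. No paired analysis was possible because there is 1 group. The number of reads behind a call, which would set how weak a peak can be seen, was not analysed here.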
